A study of Eriocheir sinensis with 2 samples.

Results

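Insulin, target of rapamycin (TOR), Ras-MAPK and TGF-beta signalling genes of the Y-organ of the Chinese mitten crab *Eriocheir sinensis* are described here as 97 unigenes, out of 47966 with at least 1 read. A unigene is an assembled transcript or a fragment of one. The 97 were chosen by words in the description of their best hit in the nr protein database (such as insulin, rapamycin, S6 kinase, 14-3-3, mitogen-activated, Ras GTPase, activin or Smad), without use of any read count. Hits to 4 named ciliate genera were to be dropped, and this removed 0 unigenes. In all, 13314 unigenes carry such a description. Sample C1 came from crabs 48 h after removal of the eyestalk, and sample C0 from crabs with untreated eyestalks, sampled after the same time. Both groups had 30 healthy crabs of 5 to 6 g held in fresh water, and no sham operation is named, so removal of the eyestalk and the wound cannot be told apart. Each group gave 1 library of single-end reads, hence no difference has a replicate check. Whether all crabs of a group entered its library is not spelled out in the labels. Fewer cells of a type and less RNA per cell cannot be told apart in such bulk RNA.

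The Y-organ makes ecdysteroids, the molting hormones, and the eyestalk holds the neurosecretory tissue that restrains it. In the insulin pathway a receptor acts through insulin receptor substrates, PI3-kinase and Akt, and Akt relieves the block that tuberin places on the TOR kinase, which then drives protein synthesis through the p70 S6 kinase. Growth factor receptors also act through Ras on a chain of MAP kinases, and this branch, with its receptor Torso, stimulates ecdysteroid synthesis in the prothoracic gland of insects. Activins and other TGF-beta ligands act through type II receptors and Smad proteins. Studies of other crabs, among them the land crab *Gecarcinus lateralis*, have linked TOR signalling to activation of the Y-organ, and activin-like signalling to later molt stages.

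The libraries held 3.75 M unigene reads in C1 and 4.15 M in C0 (M, 10 to the power of 6). The term DEU (differentially expressed unigene) is used for a unigene whose log2 ratio (C1/C0, with 0.5 read added to each) lay beyond 1 in either direction and whose reads in the 2 libraries gave an adjusted p no higher than 0.001 in an exact binomial test. The test compares these 2 libraries and not the conditions, and the 95% intervals given are Wilson intervals that cover counting error only. Among unigenes with 10 or more reads in C1 and C0 combined, the median log2 ratio was 0.15 over all and -0.07 over those with an nr annotation. TMM scaling lowers every log2 ratio by 0.17 and median-ratio scaling by 0.15. As a check of the tissue, an ecdysone biosynthesis protein (Unigene19254_A0A) had an RPKM (reads per kilobase of unigene, per M unigene reads of the library) of 19454 in C1 and 18807 in C0. Markers of other cells moved as well. The muscle words matched 36 unigenes, among them 2 non-muscle myosins, myosin light chain kinases and a titin-interacting obscurin-like protein. Without these the remaining 30 took 0.125% of the reads in C1 and 0.212% in C0, with 6 DEUs lower and 1 higher (all 36, 0.166% in C1 and 0.244% in C0). The hemocyte list of 16 took 0.0615% in C1 and 0.0837% in C0, with 2 DEUs lower. Unigenes with a ciliate best hit, 183 in number, had 0.274% in C1 and 0.783% in C0 with 99 DEUs, all lower. The epidermis and cuticle list of 21 had 4108 reads in C1 and 2263 in C0 (1 DEU higher, 1 lower), but nearly all lay on a single arthrodial cuticle protein (Unigene20409_A0A, 3888 in C1 and 1939 in C0). The other 20 had 220 in C1 and 324 in C0, of which the lower DEU, cuticle proprotein proCP3.3 (Unigene39705_A0A), had 7 in C1 and 79 in C0. The chitin synthase unigenes read the other way on few reads (9, 12, 6 and 5 in C1, and 3, 2, 1 and 1 in C0). The hepatopancreas list had 450 reads in C1 and 484 in C0 on 10 unigenes with no DEU, after removal of 5 further matches, which were a tubulin polyglutamylase and inter-alpha-trypsin inhibitors (96 in C1 and 102 in C0). Most of the 450 and 484 reads lay on a trypsin-like serine protease (Unigene18865_A0A, 404 in C1 and 425 in C0), whose annotation does not say that it is digestive. The Y-organ list of 6 held 6.93% in C1 and 6.69% in C0 (1 DEU higher). Of its 259900 reads in C1 and 277764 in C0, 259118 and 277318 lay on Unigene19254_A0A alone, and the list also took in ecdysteroid receptor unigenes. The 8 nervous tissue unigenes had 5 reads in C1 and 19 in C0. The part of these cells in the results below was not tested.

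Of the signalling unigenes 5 fell in C1, namely 3 unigenes of 14-3-3 proteins and 2 of S6 kinases, and 0 rose. The remaining 92 were not DEUs. The called share was 5.15% of the 97, and 7.25% of those with 10 or more reads. Both lay close to the shares of annotated unigenes called in either direction. They lay above the shares of annotated unigenes that were lower DEUs, but rest on 5 unigenes. Over all unigenes 1.7% were lower DEUs and 2.32% higher DEUs (4.03% in either direction), and over annotated unigenes 2.98% were lower and 2.16% higher (5.14%). For annotated unigenes with 10 or more reads these shares were 4.39% lower and 3.18% higher (7.57%). No DEU of the series had fewer than 16 reads in C1 and C0 combined, a depth that 51 of the signalling unigenes reached. Another 3 unigenes passed the p threshold with a lower reading but not the log2 threshold, and 1 passed it with a higher reading. Lower readings at that p were seen for 2.45% of all unigenes and 4.64% of annotated ones, and higher readings for 3.46% and 4.03%. The number of lower DEUs was 6 with TMM or median-ratio scaling. If libraries of a group were assumed to vary by a coefficient of variation (CV) of 0.2, the number was 2, and at 0.4 it was 0.

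Of the 97, 69 had 10 or more reads, and these had a median log2 ratio of -0.51, with quartiles of -0.95 and 0.13. A negative log2 ratio was found for 49 of the 69 (71.0%), compared with 53.7% of annotated unigenes and 41.3% of all unigenes at the same minimum. A log2 ratio below -1 was found for 17, and one above 1 for 3, where the annotated unigenes had 15.4% below -1 and 9.71% above 1. The lower median was seen at each level of abundance. It was -0.64 for the 42 unigenes with 10 to 49 reads (annotated unigenes, -0.15), -0.35 for the 17 with 50 to 199 reads (-0.04) and -0.47 for the 10 with at least 200 reads (0.09). Unigenes of at least 400 bp had a median of -0.44 (annotated, -0.05), and shorter ones -0.64 (-0.10). The 28 unigenes under 10 reads are too shallow for a reading of direction.

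**Figure D1:**
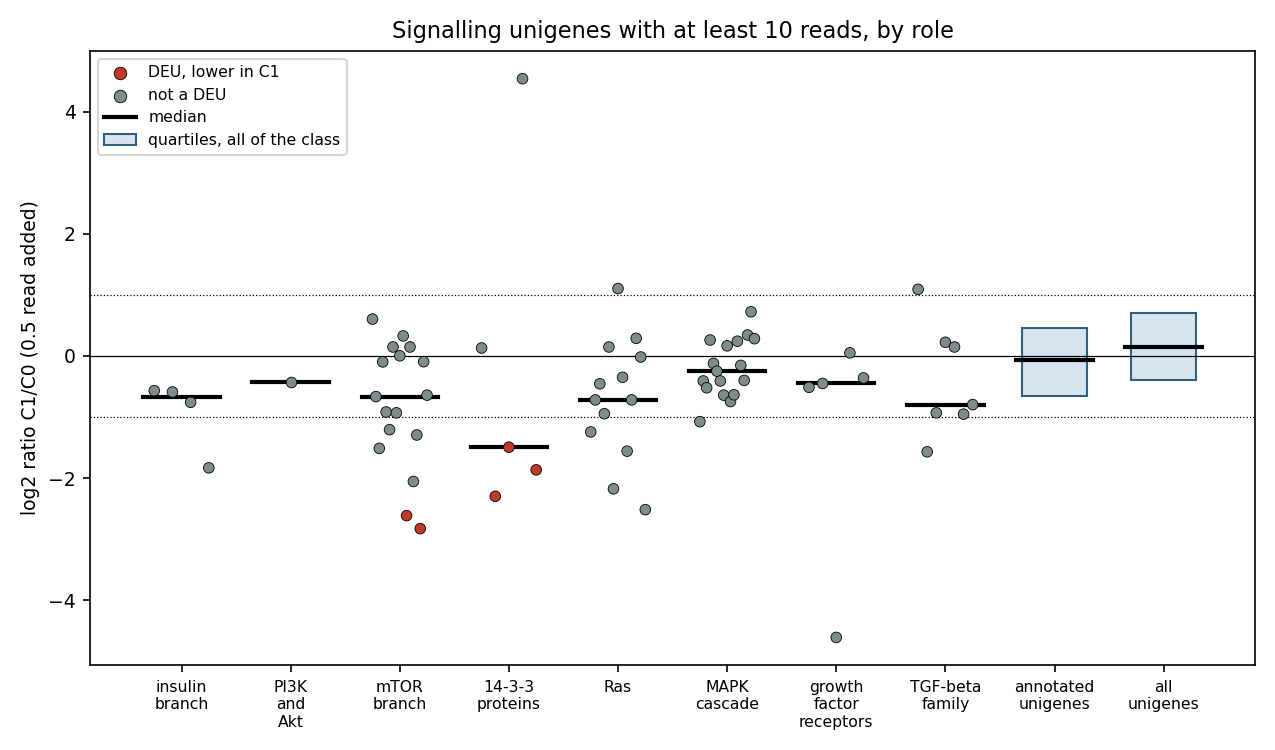
Log2 ratio (C1/C0, 0.5 read added) of each signalling unigene with at least 10 reads, grouped by role, with the median of each group as a black bar and the 5 DEUs in red. Boxes show the quartiles and median of all annotated unigenes and of all unigenes, dotted lines mark the log2 thresholds, and the extreme points at 4.54 and -4.61 belong to unigenes with 0 reads in 1 library. All 8 group medians lie below 0, as does that of annotated unigenes (-0.07). The PI3K and Akt median is that of 1 unigene, and the insulin branch median that of 4.

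Together the 97 unigenes took 0.366% of the reads in C1 (95% interval 0.359 to 0.372%) and 0.429% in C0 (0.423 to 0.436%). Most of these reads (76.5%) lay on 2 unigenes, a 14-3-3-like protein and a MAP kinase-interacting kinase. The other 95 unigenes had 2776 reads in C1 and 4651 in C0, a log2 ratio of the sums of -0.60 (-0.67 to -0.53). Their levels were otherwise modest. The median RPKM over the 97 unigenes was 4.14 in C1 and 6.77 in C0, beside 5.80 in C1 and 6.63 in C0 over all annotated unigenes. Reads covered a median of 52.1% of the unigene length in C1 and 72.0% in C0, beside 59.6% in C1 and 67.6% in C0 over all annotated unigenes.

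In the insulin branch the 7 unigenes name no insulin-like peptide and no insulin receptor. Insulin receptor substrate 1, the docking protein between receptor and PI3-kinase, was represented by 3 unigenes. The deepest of them, CL1382.Contig1_A0A, had 79 reads in C1 and 130 in C0 (RPKM 15.9 and 23.7), a log2 ratio of -0.57 (-0.97 to -0.17, adjusted p = 0.0477, exact binomial test), and it was not a DEU. Together the 3 had 84 reads in C1 and 141 in C0. Insulin-degrading enzyme, a metalloprotease that breaks down insulin and other small peptides, was represented by Unigene13636_A0A, with 51 reads in C1 and 96 in C0 (log2 ratio -0.76, -1.25 to -0.28), and Unigene6633_A0A, with 8 reads in C1 and 33 in C0 (-1.83, -2.99 to -0.81, adjusted p = 0.00368, exact binomial test). Both were lower in C1 and neither was a DEU. The remaining 2 unigenes of this branch, an IGF2 mRNA-binding protein and an acid labile subunit of the IGF-binding complex, had at most 3 reads in either library.

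PI3-kinase makes the membrane lipid that recruits Akt. Its regulatory subunit alpha, Unigene8637_A0A (3942 bp), had 411 reads in C1 and 611 in C0, which is an RPKM of 27.8 and 37.3. The log2 ratio was -0.42 (-0.61 to -0.25, adjusted p = 7.54e-05, exact binomial test), short of the log2 threshold. A second PI3-kinase fragment, Unigene34417_A0A, had 1 read in C1 and 4 in C0. Of the 18 words used, 3 (Rheb, tuberous and RAC serine/threonine, the database name of Akt) matched no unigene, which says only that these words are not in the annotations.

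The TOR branch, as the words grouped it, held 22 unigenes, 17 of them with at least 10 reads, and their median log2 ratio was -0.67. The 22 include 2 unigenes of S6 kinase alpha-2 or alpha-3 (RSK) and 5 of alpha-5 (MSK). These kinases act downstream of ERK or p38, so the branch median, counts and DEUs are not those of TOR signalling alone. Of the 17, 12 were lower and 5 higher in C1. The S6 kinases carried both DEUs of the branch. Unigene54656_A0A (1511 bp), annotated as ribosomal protein S6 kinase alpha-2, had 17 reads in C1 and 137 in C0, or an RPKM of 3.00 and 21.8. It fell 7.28-fold in C1, with a log2 ratio of -2.83 (-3.58 to -2.14, adjusted p = 4.48e-20, exact binomial test), the largest fall among the DEUs of the 97. Its reads covered 42.0% of the unigene in C1 and 98.3% in C0. Alpha-type S6 kinases of this kind (RSK) are activated by ERK, so that this unigene belongs to the MAP kinase branch by function although the words put it here. The call was kept with TMM, with the median ratio, with a log2 threshold of 2 and with an assumed CV of 0.2 (adjusted p = 4.64e-05, edgeR's exact test), and lost at 0.4.

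Unigene4208_A0A (415 bp) has the 70 kDa S6 kinase of *G. lateralis* as its best hit, the kinase through which TOR drives translation. It had 4 reads in C1 and 30 in C0 (RPKM 2.57 and 17.4) and fell by 2.61 on the log2 scale (interval -4.20 to -1.32, adjusted p = 0.000316, exact binomial test). At an assumed CV of 0.1 it was no longer called (adjusted p = 0.00144, edgeR's exact test). The other p70 unigene, Unigene15114_A0A, annotated as S6 kinase beta-1, read lower too, with 12 reads in C1 and 39 in C0 (log2 ratio -1.51, -2.47 to -0.64), without being a DEU. Together the p70 unigenes had 16 reads in C1 and 69 in C0. The S6 kinases alpha-5 (MSK), nuclear kinases downstream of ERK and p38, held no DEU. Their 5 unigenes had 122 reads in C1 and 157 in C0 together, a log2 ratio of the sums of -0.22 (-0.56 to 0.12). Unigene1647_A0A, the deepest of them, had 81 reads in C1 and 96 in C0 (-0.10, -0.52 to 0.33), and Unigene11626_A0A had 22 in C1 and 39 in C0 (-0.67, -1.42 to 0.07). The summed p70 reads had an interval of -2.74 to -1.19, but that sum holds a unigene already called a DEU. Both sums were chosen after their values were seen, and a difference between MSK and p70 was not tested. The single intervals of Unigene11626_A0A and Unigene15114_A0A overlap.

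**Figure D2:**
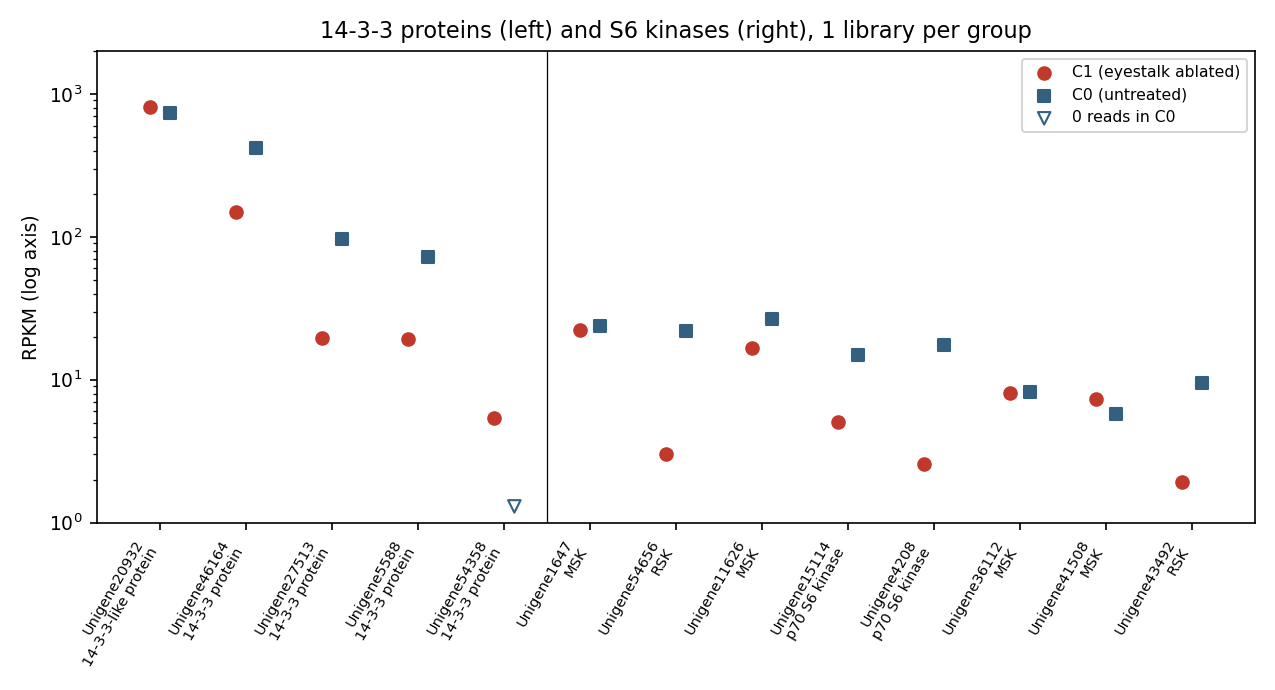
RPKM on a log axis of the 14-3-3 unigenes (left of the line) and the S6 kinase unigenes (right) with at least 10 reads, C1 as red circles and C0 as blue squares, 1 library each, so no error bars are drawn. Both p70 and both RSK unigenes and 3 of the 14-3-3 unigenes sit lower in C1, while the abundant 14-3-3-like Unigene20932_A0A has 803 in C1 and 733 in C0.

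The TOR kinase itself was read from 7 short unigenes, with 27 reads in C1 and 55 in C0 together (log2 ratio of the sums -0.87, -1.54 to -0.22). No single one had more than 11 reads in a library. Tuberin, the GTPase-activating protein that holds TOR back, had 15 reads in C1 and 25 in C0 on 4 unigenes (-0.57, -1.50 to 0.32). The MAPKAP1 subunit of TOR complex 2, Unigene11450_A0A, stood on the other side with 29 reads in C1 and 21 in C0 (0.60, -0.19 to 1.41), and the shared subunit LST8 had 0 reads in C1 and 1 in C0. None of these was a DEU, and the TOR kinase and tuberin intervals overlap.

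The 14-3-3 proteins bind phosphorylated serine and threonine sites and hold partners such as Raf, tuberin and FoxO factors in place. They were the most abundant group, with 0.205% of the reads in C1 (0.201 to 0.210%) and 0.211% in C0 (0.207 to 0.216%). This near-equal sum was made of unigenes that moved differently. Unigene20932_A0A (2414 bp) had 7268 reads in C1 and 7351 in C0, a log2 ratio of 0.13 (0.08 to 0.18) that changed sign with TMM (-0.04) and with the median ratio (-0.02). By RPKM it stood above 99.7% of all unigenes in both libraries. The other 5 unigenes had 434 reads in C1 and 1413 in C0.

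Of these 5, 3 were DEUs, and each has a 14-3-3 protein of the shrimp *Penaeus monodon* as its best hit, as does Unigene20932_A0A. Unigene46164_A0A (675 bp) fell 2.82-fold, to 376 reads (RPKM 149) in C1, against 1173 (RPKM 418) in C0, with a log2 ratio of -1.49 (-1.66 to -1.33, adjusted p = 3.01e-76, exact binomial test). Unigene27513_A0A (424 bp) had 31 reads in C1 and 171 in C0 (RPKM 19.5 and 97.1) and fell by 2.30 on the log2 scale (-2.87 to -1.77, adjusted p = 6.25e-20, exact binomial test). Unigene5588_A0A (206 bp) had 15 reads in C1 and 62 in C0 (RPKM 19.4 and 72.5) and a log2 ratio of -1.86 (-2.70 to -1.10, adjusted p = 1.20e-05, exact binomial test). Of the 3, only Unigene27513_A0A was still called at an assumed CV of 0.2 (adjusted p = 0.000783, edgeR's exact test) or with a log2 threshold of 2. The opposite reading came from Unigene54358_A0A (494 bp, same best-hit species), with 10 reads in C1 and 0 in C0, at least 3.69-fold higher against a floor of 3 counts, and not a DEU (adjusted p = 0.00740, exact binomial test). Unigene34177_A0A, whose best hit is from the slime mold *Physarum polycephalum*, had 2 reads in C1 and 7 in C0. Fragments of 1 transcript, alleles and paralogs cannot be told apart among the shrimp-like unigenes, and unique mapping can split reads between them.

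Among the Ras group of 14 unigenes, 13 had at least 10 reads, of which 10 were lower and 3 higher in C1 (median log2 ratio -0.72). None was a DEU. Most are Ras GTPase-activating proteins, which switch Ras off. Their 9 unigenes had 272 reads in C1 and 433 in C0 together (log2 ratio of the sums -0.52, -0.74 to -0.31), and 7 of the 9 were lower. The deepest, Unigene26057_A0A (2049 bp), had 79 reads in C1 and 169 in C0 (RPKM 10.3 and 19.9), a log2 ratio of -0.95 (-1.33 to -0.57, adjusted p = 1.95e-05, exact binomial test) that passed the log2 threshold with TMM (-1.11) and the median ratio (-1.09). In contrast, Unigene9689_A0A (2066 bp), with the same description, had 99 reads in C1 and 111 in C0 (-0.02, -0.41 to 0.37). Unigene13315_A0A had 18 reads in C1 and 48 in C0 (-1.24, -2.04 to -0.50, adjusted p = 0.0136, exact binomial test).

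No unigene of the group was annotated as Ras itself, and its small GTPases were other ones. Ran, the GTPase of nuclear transport (Unigene9027_A0A, annotated as Ras-like nuclear protein), had 309 reads in C1 and 280 in C0, an RPKM of 82.1 and 67.2 and a log2 ratio of 0.29 (0.06 to 0.52, adjusted p = 0.112, exact binomial test). RhoL had 69 reads in C1 and 105 in C0 (-0.46, -0.90 to -0.02). M-Ras, a close relative of Ras (Unigene29414_A0A), had 3 reads in C1 and 17 in C0, an interval of -4.03 to -0.68. The NF-kappa-B inhibitor-interacting Ras-like protein (Unigene55621_A0A) had 11 reads in C1 and 37 in C0 (-1.56, -2.56 to -0.65, adjusted p = 0.00884, exact binomial test). Ran thus read slightly higher and the other small GTPases lower, and none was a DEU, although M-Ras and the NF-kappa-B inhibitor-interacting protein lay beyond the log2 threshold. An IQGAP3-like unigene, the last of the group, had 1 read in C1 and 0 in C0.

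The MAP kinase cascade was the largest group, with 27 unigenes. The RSK and MSK unigenes, placed in the TOR branch by the words, are not counted in it. Of the 17 with at least 10 reads, 11 were lower and 6 higher in C1, and their median log2 ratio of -0.25 lay closer to that of annotated unigenes than the median of any other group. The MAP kinase-interacting kinase (MNK), which phosphorylates the cap-binding factor eIF4E, dominated the reads. Its unigene, Unigene18847_A0A (3036 bp, best hit in the mud crab *Scylla paramamosain*), had 3666 reads in C1 and 5826 in C0, an RPKM of 322 and 462. The log2 ratio of -0.52 was narrow in counting error (-0.58 to -0.46, adjusted p = 6.50e-65, exact binomial test) and under the log2 threshold.

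Several kinases in the middle of the cascade read slightly higher in C1, none of them a DEU. A MAP kinase of unnamed subtype, Unigene19245_A0A (1819 bp, best hit also in *S. paramamosain*), had 369 reads in C1 and 341 in C0 (RPKM 54.1 and 45.1), a log2 ratio of 0.26 (0.05 to 0.47, adjusted p = 0.111, exact binomial test). The p38 kinase, a stress-activated MAP kinase, had 75 reads in C1 and 67 in C0 on 2 unigenes (0.31, -0.16 to 0.78). MAP kinase kinases, the enzymes that activate MAP kinases, had 156 reads in C1 and 145 in C0 on 5 unigenes (0.25, -0.07 to 0.58). Among these, Unigene54583_A0A (kinase kinase 3-like) had 42 reads in C1 and 28 in C0 (0.72, 0.05 to 1.42), and Unigene41174_A0A (MKK3/MKK6) had 75 in C1 and 74 in C0 (0.17, -0.30 to 0.63). With TMM the last value turned to -0.0032. The ERK-A unigene, the MAP kinase activated through Ras, read the other way with 10 reads in C1 and 19 in C0 (-0.75, -1.86 to 0.30).

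Upstream in the cascade the readings were lower. MAP kinase kinase kinases had 24 reads in C1 and 44 in C0 on 10 unigenes (-0.71, -1.44 to -0.02), most of them too shallow for a reading of direction each. The kinases above them (MAP4K) had 69 in C1 and 94 in C0 on 5 unigenes, all lower (-0.30, -0.75 to 0.15). No unigene of either tier had more than 26 reads in a library. The reads for MADD, a Rab3 exchange factor whose name contains the words MAP kinase, were 0 in C1 and 2 in C0. The MAP kinases themselves were mixed, as ERK-A read lower. Among the other pathway genes below, a c-jun N-terminal kinase (Unigene47968_A0A) had 23 reads in C1 and 35 in C0 (-0.45, -1.21 to 0.29). The summed intervals of the MAP kinase kinases (-0.07 to 0.58) and of p38 (-0.16 to 0.78) span 0. Both overlap the intervals of the 2 upstream tiers. A difference in sign between tiers is therefore not resolved by these reads, and it was not tested.

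Growth factor receptors were shallow. The 5 VEGF receptor-like unigenes had 44 reads in C1 and 67 in C0 (-0.45, -1.01 to 0.09). Unigene26452_A0A (VEGF receptor 2) had 19 in C1 and 29 in C0 (-0.45, -1.29 to 0.36), and Unigene42095_A0A had 14 in C1 and 15 in C0 (0.05, -0.98 to 1.08, and -0.12 with TMM). An EGF receptor fragment had 1 read in C1 and 0 in C0. The word match also took in EPS8, an actin-regulating substrate of the EGF receptor. Its Unigene16476_A0A had 46 reads in C1 and 73 in C0 (-0.51, -1.05 to 0.01, adjusted p = 0.292, exact binomial test). A second EPS8-like fragment, Unigene32823_A0A (212 bp), had 0 reads in C1 and 13 in C0, at least 3.91-fold lower against a floor of 3 counts, and was not a DEU (adjusted p = 0.00414, exact binomial test). None of the 8 unigenes in the group was a DEU.

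The TGF-beta family was as shallow, with 95 reads in C1 and 136 in C0 on 11 unigenes, and 0 DEUs. Type II activin receptors, which bind the ligand, had 18 reads in C1 and 22 in C0 on 2 unigenes (-0.14, -1.03 to 0.74). Most of these lay on Unigene31817_A0A, with 16 in each library (0.15, -0.83 to 1.13, and -0.02 with TMM). SARA, the anchor that presents Smads to the receptor, had 41 reads in C1 and 43 in C0, of which Unigene16307_A0A had 38 in C1 and 36 in C0 (0.22, -0.43 to 0.88). The Smads themselves read lower. Mad or Smad5, the Smads of the BMP branch, had 20 reads in C1 and 48 in C0 on 3 unigenes (-1.10, -1.86 to -0.37), the deepest being Unigene14080_A0A with 13 in C1 and 28 in C0 (-0.93, -1.89 to -0.03, adjusted p = 0.272, exact binomial test). Smad4, the partner shared by all branches, had 3 reads in C1 and 14 in C0 (interval -3.77 to -0.38). BAMBI, a decoy receptor that blocks the pathway, had 12 reads in C1 and 6 in C0 (1.09, -0.22 to 2.51), and a TGF-beta resistance-associated protein had 1 read in C1 and 3 in C0.

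Since several unigenes share an annotation and may be fragments of 1 transcript, the reads were also summed over 38 proteins or classes of related proteins. The MAP kinase kinases, their upstream kinases, the VEGF receptors and the Ras GTPase-activating proteins are classes of different members. The 14-3-3-like sum also holds Unigene34177_A0A, whose best hit is from the slime mold. Of the 23 sums with at least 50 reads, 13 had an interval wholly below 0, 3 wholly above 0 and 7 across it. The 3 wholly above 0 were the 14-3-3-like protein, Ran and the MAP kinase of unnamed subtype. Under TMM these counts were 16, 0 and 7, and under the median ratio 15, 0 and 8, so that no interval stayed wholly above 0. No such count was made over other unigenes, so these numbers have no background share beside them. The lowest sums were those of RSK (19 reads in C1 and 148 in C0, log2 ratio -2.78, -3.50 to -2.13), p70 S6 kinase (-1.93), the 14-3-3 protein unigenes without the abundant one (-1.55) and Mad or Smad5 (-1.10).

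**Figure D3:**
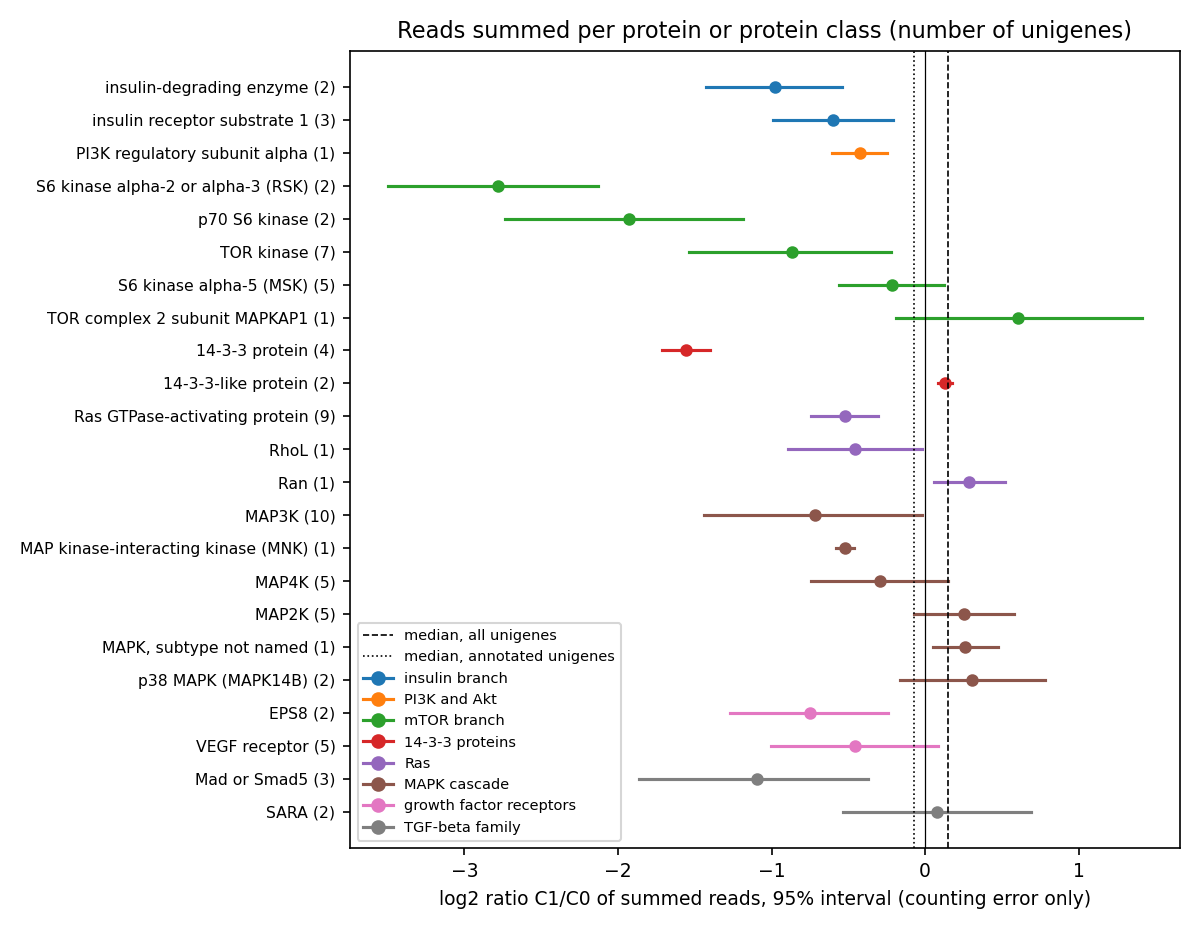
Log2 ratio (C1/C0) of the reads summed over all unigenes of a protein or class of related proteins, for the 23 sums with at least 50 reads, with the number of unigenes in parentheses and 95% Wilson intervals that cover counting error only. Dashed and dotted lines mark the medians of all and of annotated unigenes. Of the intervals, 13 lie wholly below 0 and 3 wholly above, and no such count was made over other unigenes.

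The best hits were decapod proteins for 9 of the 97 unigenes, other arthropod proteins for 69, vertebrate proteins for 13, sea urchin or acorn worm proteins for 4 and proteins of unicellular eukaryotes for 2, with E-values of at most 1.56e-06. The 57 unigenes with an arthropod hit and at least 10 reads had a median log2 ratio of -0.46, and the 9 with a vertebrate hit -0.64. All 5 DEUs have an arthropod best hit. The 2 unigenes with a hit in a unicellular eukaryote had 3 reads in C1 and 7 in C0 together. GO terms were deposited for 78 of the unigenes, and 21 carry protein kinase activity as a function.

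Other genes of the same pathways were taken by a second list of words. It matched 69 unigenes, 45 with at least 10 reads, with a median log2 ratio of -0.32. Of the 69, 2 were DEUs, both lower, 0 were higher and 67 were not called. This share of 2.90% stands beside 2.98% of annotated unigenes that were lower DEUs and 5.14% called in either direction. Unigene14494_A0A, a VEGF-like growth factor, fell by 1.48 on the log2 scale (-2.14 to -0.85), with 25 reads in C1 and 78 in C0 (adjusted p = 3.58e-05, exact binomial test). Unigene12138_A0A, the forkhead transcription factor FoxK2, fell by 1.22 (-1.83 to -0.63), with 30 reads in C1 and 78 in C0 (adjusted p = 0.000734, exact binomial test). A second VEGF-like unigene, Unigene35867_A0A, had 51 reads in C1 and 63 in C0 (-0.16, -0.69 to 0.37).

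Several regulators of these pathways read much alike in both libraries. AMP-activated protein kinase alpha, the energy sensor that restrains TOR (Unigene44648_A0A), had 348 reads in C1 and 359 in C0, a log2 ratio of 0.10 (-0.11 to 0.31). A PI3-kinase of another annotation (Unigene26035_A0A, isoform b, best hit in the spiny lobster *Panulirus argus*) had 142 in C1 and 140 in C0 (0.17, -0.17 to 0.50), and Rap-2c, a Ras-related GTPase (Unigene8636_A0A), had 101 in C1 and 110 in C0 (0.02, -0.36 to 0.41). With TMM all 3 log2 ratios turned negative, none by more than the shift of 0.17 given above. The highest log2 ratio among the 45 with at least 10 reads was that of a 3-phosphoinositide-dependent protein kinase 1-like unigene, Unigene30527_A0A. It had 16 reads in C1 and 3 in C0 (2.38, 0.88 to 4.24, adjusted p = 0.0201, exact binomial test) and was not a DEU. A second unigene of that description, Unigene50831_A0A, had 6 in C1 and 12 in C0 (-0.80, -2.22 to 0.51). Myostatin, a TGF-beta ligand that limits muscle growth in vertebrates, was annotated from *E. sinensis* itself on 3 unigenes, which had 18, 8 and 17 reads in C1, against 41, 13 and 25 in C0. Of the 69 matches, 9 name proteins of other pathways, such as the multiple EGF-like domain proteins (Unigene9630_A0A, 111 reads in C1 and 154 in C0). Without them the median was -0.40 and the 2 DEUs were kept.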

How the data were processed

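Y-organ RNA was sequenced by the authors in 1 library per group. Clean reads were mapped by the authors with SOAPaligner/soap2 (version not given in the sources used here) to the unigenes of an earlier transcriptome, with 1 or 2 mismatches. The deposited counts are uniquely mapped reads per unigene, without normalization. The RPKM values were calculated by the authors from count, length and library total (RPKM of 0 is written as 0.001). The deposited coverage is the percent of unigene length under reads. The authors' own ratio, p-value and false discovery rate columns were not used. Of the unigene identifiers, 0 are in the gene table of the later genome assembly, so coordinates and sequences are not given.

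Library sizes were the summed counts, 3.75 M (C1) and 4.15 M (C0), and columns without a sample numbered 0. The floor of 3 counts set for a unigene without reads is a share of 8.00e-05% in C1 and 7.22e-05% in C0. The exact two-sided binomial test was adjusted (Benjamini-Hochberg) over 47966 unigenes. The thresholds are those of the study. A fit with replicates was not possible. Python 3.11.15, numpy 2.4.6, scipy 1.17.1, pandas 2.3.3, matplotlib 3.10.9 and edgeR 4.0.16 (R 4.3.3) were used, and the code was tested on simulated data. Alternatives were TMM and median-ratio scaling, edgeR's exact test at an assumed biological variation (CV) of 0.1, 0.2 or 0.4, other minimum reads, thresholds and denominators.

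The members and lists were chosen with earlier results of these data known. Named were all DEUs, and in each role group the 3 unigenes with the most reads and, with at least 50 reads, the highest and lowest log2 ratio, and of the other pathway genes the DEUs and the 5 with the most reads. Other unigenes named, the protein sums and the classes of best-hit species were chosen after their values were seen. Markers of the Y-organ, nervous tissue, muscle, hemocytes, hepatopancreas, and epidermis with cuticle were found by words, and ciliates by species. Matches that name another protein were set aside after their values were seen.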

Additional observations from a re-analysis of the deposited data

How the results depend on the processing

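No paired analysis was possible because each group has 1 library, and no library could be left out. The count of lower DEUs among the signalling unigenes was 5 in the main test, 4 at an assumed CV of 0.1, 2 with 0.2, 0 with 0.4 and 3 with a log2 threshold of 2. The count of higher ones was 0 under all 9 alternatives run. Over all unigenes the 1931 DEUs became 1237, 295 and 8 with the 3 assumed coefficients and 678 with the log2 threshold of 2. The members' median log2 ratio of -0.51 was -0.68 with TMM, -0.66 with the median ratio and -0.64 with members of at least 1 read, and it lay between -0.52 and -0.42 under the other 6 alternatives, of which the sums per protein or class and the arthropod hits were chosen after seeing the data. The summed share was 0.556% in C1 and 0.653% in C0 without the 10 most abundant unigenes, 0.623% in C1 and 0.734% in C0 of the annotated reads, and 0.172% in C1 and 0.252% in C0 without Unigene20932_A0A. Of 28 named unigenes, 4 changed sign with TMM, namely Unigene20932_A0A (-0.039), Unigene41174_A0A (-0.0032), Unigene31817_A0A (-0.022) and Unigene42095_A0A (-0.12), and 2 with the median ratio, Unigene20932_A0A (-0.016) and Unigene42095_A0A (-0.10). Depth limits the rest: 46 of the 97 unigenes had fewer than the 16 reads of the shallowest DEU.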
